A study of Mus musculus with 18 samples.

Results

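The Notch pathway genes described here are the ligands Dll1, Dll3 and Jag1, the receptors Notch1, Notch2 and Notch3, the ligand-like protein Dner, the modifiers Lfng and Numb, and the nuclear partner Rbpj. They were taken by symbol, as all probe sets of the array that the platform annotation pairs with 1 of these 10 genes and no other, which gave 20 of 45101 probe sets and 10 of 18193 genes. A probe set is a group of short probes read together, and its value is a linear signal without unit. Of the 20 probe sets, 18 reached a mean signal of 100 in at least 1 group and were tested, and each of the 10 genes has at least 1 of them. Where a gene has several, the brightest over the 18 arrays stands for it.

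RNA was measured in mouse cells taken at E15.5 from the ganglionic eminences, grown as neurospheres, dissociated and plated to differentiate. Cultures were treated with 50 nM trichostatin A (TSA), an inhibitor of histone deacetylases, with 10 ng/ml recombinant BMP2, a ligand of the BMP receptors that act through Smad proteins, or were left as controls. There were 2 TSA, 2 BMP2 and 2 control arrays at 6 h, and 4 TSA, 2 BMP2 and 6 control arrays at 24 h, all from C57BL/6 mice and all from medium without EGF that held serum. The sources differ on the day at which the treatment began. The cultures are mixtures of cell types, and their labels do not say whether replicates came from separate cultures, so that p-values reflect the spread between these arrays and nothing wider.

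Notch receptors are activated by ligands on a neighbouring cell. The receptor is then cut, and its intracellular part enters the nucleus, joins the DNA-binding protein Rbpj and switches on genes of the Hes and Hey families. In the embryonic forebrain, cells that begin to differentiate into neurons carry Dll1 and keep their neighbours in the progenitor state through Notch, and Notch activity is also known for favouring glia. Dll3 lacks the ability to activate Notch on other cells in the mouse, Fringe enzymes such as Lfng attach sugars to the receptors and change which ligand they answer to, and Numb lowers the amount of Notch receptor at the membrane.

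The deposited median signal was between 35.4 and 41.6 on the 18 arrays, and arrays of the same group correlated at 0.963 to 0.994. Genes of neural stem cells and radial glia (Nes, Sox2, Fabp7, Vim and Pax6) had a summed signal of 20576 to 27010 on all arrays, whereas all 4 microglia and both erythroid genes measured had group means under 100. The arrays fell apart by 1 probe set of the transcript Xist. It read 703 to 2086 on 4 arrays and 18.4 to 75.5 on the other 14. The 4 were both BMP2 arrays of 24 h and control replicates 5 and 6 of 24 h. The grouping rests on this probe set, which gave the widest split. Another Xist probe set split the same arrays more narrowly, at 2197 to 4467 against 325 to 1875. The remaining one did not split them, at 23.4 to 97.5 on the 4 arrays and 66.8 to 375 on the other 14. The labels name no batch, and TSA and the 6 h groups lie outside this Xist grouping. Values of the 10 genes for 24 h are therefore also given with the grouping as a term of the fit where it matters. The cell type markers and the further pathway genes are given without it. All treatment comparisons of a time share the same control arrays.

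In the fit of all 18 arrays with limma, "rose" and "fell" stand for an adjusted p (after Benjamini and Hochberg, over the 19439 tested probe sets) under 0.05, and fold changes are on the scale of log2(signal + 32). Dll3 fell with TSA at both times, and Dll1 fell with BMP2 at both times. With TSA, 3 of the 10 genes were called at 6 h (Numb rose, Dll3 and Rbpj fell) and 5 at 24 h (Lfng, Dner and Numb rose, Dll3 and Rbpj fell), where 22.5% and 35.4% of all tested probe sets were called. With BMP2, 1 of 10 was called at 6 h (Dll1 fell) and 4 at 24 h (Jag1 and Dner rose, Dll1 and Dll3 fell), against 1.47% and 16.5% of all tested probe sets. The median log2 fold change of the 10 genes was -0.43 and 0.14 with TSA and -0.03 and 0.19 with BMP2 at 6 h and 24 h, beside medians of 0.01, -0.02, 0 and 0.003 for all tested probe sets. None of the 3 receptors was called against the controls by its brightest probe set, although at an unadjusted p under 0.05 Notch1 and Notch3 with BMP2 at 24 h and Notch1 with TSA at 6 h would pass.

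**Figure D1:**
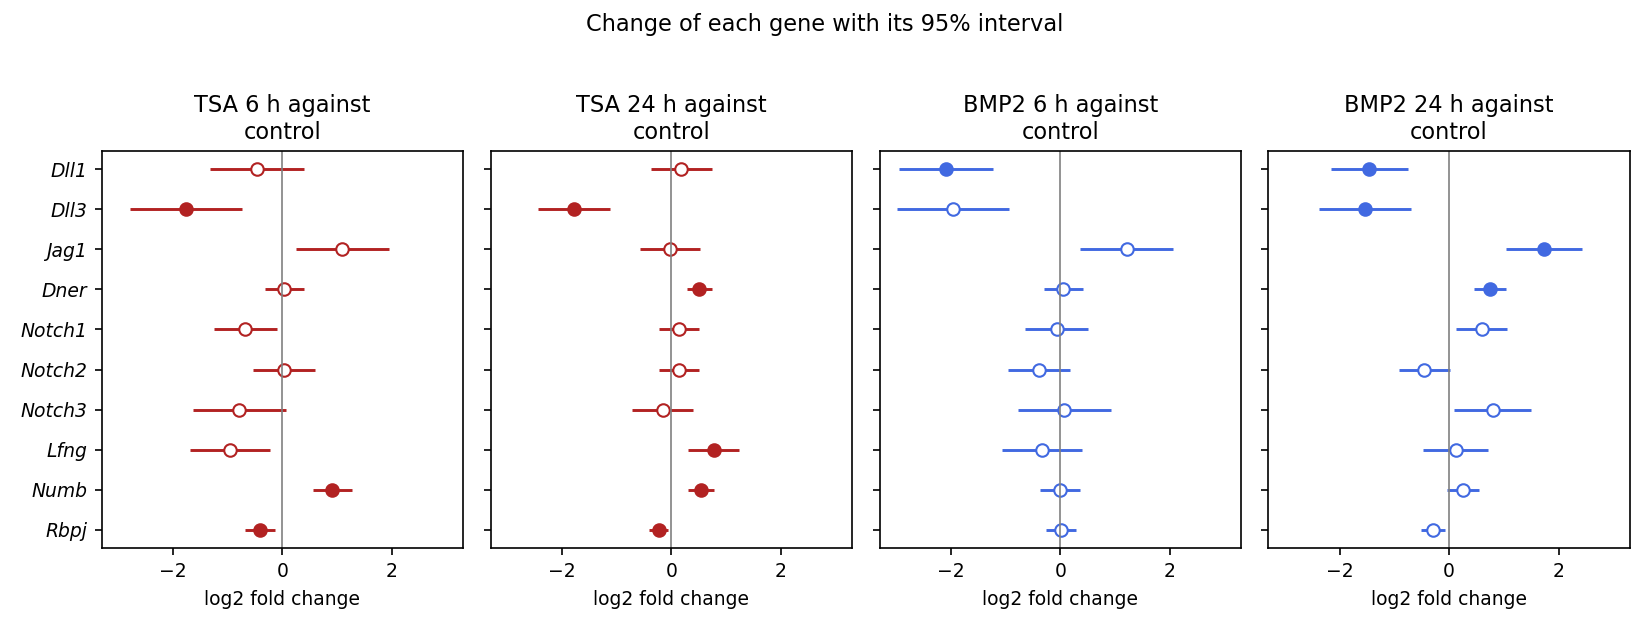
Log2 fold change of each gene (points, brightest probe set) with its 95% interval (lines) for TSA and BMP2 against the controls of the same time. Filled points passed an adjusted p of 0.05 and open points did not. Dll3 lies at -1.76 and -1.77 with TSA, Dll1 lies at -2.09 and -1.45 with BMP2, and Jag1 lies at 1.74 with BMP2 at 24 h.

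With BMP2, the 3 ligands of the Delta and Jagged families gave the widest changes of the 10 genes at both times. With TSA at 24 h Dll3 (-1.77) gave the widest, but Dll1 (0.18) and Jag1 (-0.02) changed little. The windows around the transcription starts of these 3 ligands shared 1 motif. The windows run from 250 bases before to 50 bases after a start (RefSeq, build GRCm38.p6, all 3 on the minus strand and written 5′ to 3′ in the sense of the gene). They are shown because 2 of these ligands fell and 1 rose with BMP2, and capitals mark the letters CAGCTG, an E-box, which reads the same on both strands and was searched on both. The windows are those of Dll1 (chr17:15376883-15377182, the first of 2 annotated starts), Dll3 (chr7:28301736-28302035) and Jag1 (chr2:137116471-137116770).
Dll1: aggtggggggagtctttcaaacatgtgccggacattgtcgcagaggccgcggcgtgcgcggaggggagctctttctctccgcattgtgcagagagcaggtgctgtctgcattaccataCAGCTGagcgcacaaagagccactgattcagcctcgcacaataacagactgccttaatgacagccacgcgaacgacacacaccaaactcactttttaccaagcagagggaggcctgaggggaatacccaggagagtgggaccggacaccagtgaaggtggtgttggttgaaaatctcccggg
Dll3: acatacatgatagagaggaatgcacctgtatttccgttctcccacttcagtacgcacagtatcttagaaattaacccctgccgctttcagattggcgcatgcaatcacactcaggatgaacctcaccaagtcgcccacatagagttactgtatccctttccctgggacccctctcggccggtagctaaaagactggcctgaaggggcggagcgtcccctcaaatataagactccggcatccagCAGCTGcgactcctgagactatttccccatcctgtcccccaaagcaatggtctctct
Jag1: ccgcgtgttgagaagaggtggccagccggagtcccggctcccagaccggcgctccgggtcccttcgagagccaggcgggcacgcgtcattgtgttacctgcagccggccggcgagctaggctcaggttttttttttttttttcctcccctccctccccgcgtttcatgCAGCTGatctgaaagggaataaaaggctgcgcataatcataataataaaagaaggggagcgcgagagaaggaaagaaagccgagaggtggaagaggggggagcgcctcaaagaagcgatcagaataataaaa
The first letter of the E-box lies 132 bases before the start in Dll1, 7 before it in Dll3 and 82 before it in Jag1. Of the 14 windows found for the 10 genes it is in 4, those above and that of Lfng, and in 16.3% of the 32851 windows of the table. The letters TGGGAA, the core that Rbpj binds, are in the windows of Lfng and Rbpj itself (3 of 14 windows, against 25.6% of all windows), and GGCGCC, a GC-rich letter string that Smad proteins can bind, is in the other Dll1 window (1 of 14, against 11.9%). The 2 windows of Rbpj overlap and share 1 of these matches. All 3 motifs were searched on both strands, no 2 different motifs overlap in these windows, and the matches are descriptions of the letters only.

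Dll1, the Delta ligand that activates Notch on neighbouring cells, fell with BMP2 at both times and did not pass the test with TSA. At 6 h its signals (probe set 1419204_at) were 958 and 619 with TSA, 215 and 242 with BMP2 and 1069.6 and 1081 in the controls. At 24 h they were 1474, 697, 953 and 1463 with TSA, 303 and 362 with BMP2, and 479.8, 1057 and 1368 in the controls (lowest, median and highest of 6). Both BMP2 arrays lay below every control at both times, while the TSA arrays of 24 h overlapped the controls. The log2 fold change with BMP2 was -2.09 (SE 0.40, adjusted p = 0.0113) at 6 h and -1.45 (SE 0.33, adjusted p = 0.00638) at 24 h, and with TSA it was -0.46 (SE 0.40, adjusted p = 0.46) and 0.18 (SE 0.26, adjusted p = 0.623). The direct comparison of TSA with BMP2 gave 1.63 (SE 0.40, adjusted p = 0.00826) at 6 h and 1.63 (SE 0.35, adjusted p = 0.00219) at 24 h. The call with BMP2 at 6 h ended without any 1 of the 4 arrays (adjusted p up to 0.14, log2 fold change -2.16 to -2.02), that at 24 h ended without BMP2 replicate 1 (0.104), and that of TSA against BMP2 at 6 h ended without BMP2 replicate 1 or TSA replicate 1 (up to 0.0903). With the Xist grouping as a term, the change with BMP2 at 24 h was -1.92 (adjusted p = 0.00257).

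Dll3, the divergent Delta relative, fell with both treatments at 24 h and with TSA at 6 h. At 6 h its signals (1449236_at) were 389 and 207 with TSA, 261 and 233 with BMP2 and 1081 and 1010.3 in the controls. At 24 h they were 538, 229.6, 131 and 376 with TSA, 329 and 351 with BMP2, and 507, 1205 and 1342 in the controls. All treated arrays of 6 h lay far below the controls, and at 24 h only TSA replicate 1 reached into their range, above control replicate 2. The log2 fold change with TSA was -1.76 (SE 0.48, adjusted p = 0.0156) at 6 h and -1.77 (SE 0.31, adjusted p = 0.000409) at 24 h. With BMP2 it was -1.95 (SE 0.48, adjusted p = 0.0582) at 6 h, which missed the threshold, and -1.54 (SE 0.39, adjusted p = 0.0135) at 24 h. TSA and BMP2 were not told apart at either time, with differences of 0.19 (95% interval -0.83 to 1.21) at 6 h and -0.24 (-1.12 to 0.65) at 24 h. The call with TSA at 24 h held without any 1 array, whereas that with TSA at 6 h ended in 3 of 4 cases (adjusted p up to 0.165, without either control or TSA replicate 2) and that with BMP2 at 24 h ended without either BMP2 array (up to 0.132).

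Genes that mark cell types moved beside these falls. Of 7 oligodendrocyte lineage genes measured, 4 fell with TSA at 6 h and 4 at 24 h, and 1 fell with BMP2 at 6 h and 5 at 24 h. Over all tested probe sets, 10.4% and 18.8% fell with TSA at 6 h and 24 h, and 0.494% and 8.11% with BMP2. At 24 h 16.6% rose with TSA and 8.42% with BMP2. Their summed signal was 21027 to 21092 with TSA, 22614 to 24690 with BMP2 and 30294 to 31925 in the controls at 6 h, and 14131 to 20440 with TSA, 11133 to 11788 with BMP2 and 25005 to 31043 in the controls at 24 h. The 5 neuronal genes (Tubb3, Dcx, Map2, Stmn2, Rbfox3) summed to 3491 to 4366 with TSA, 4887 to 5643 with BMP2 and 6078 to 7316 in the controls at 6 h, and to 2989 to 3448 with TSA, 5517 to 6441 with BMP2 and 4453 to 6560 in the controls at 24 h. With TSA 2 of them fell at 6 h, and 3 fell and 1 rose at 24 h (Stmn2). Stmn2 was tested only through the TSA group of 24 h, with a mean of 195 there and of 27.5 to 85.5 in the other groups. With BMP2 none was called by limma at 6 h (only Map2 had an unadjusted p under 0.05, 0.00853) and 1 rose at 24 h. At 24 h Tubb3 read 1493 and 1211 with BMP2, 1008 and 644 in control replicates 5 and 6 and 183 to 572 in the other controls. Rbfox3 too was highest in controls 5 and 6 (365 and 291), whereas in Dcx, Map2 and Stmn2 they overlapped the other controls. The 4 GABAergic progenitor genes measured summed to 619.6 to 1251 with TSA, 1782 to 2960.1 with BMP2 and 2474 to 3399 in the controls at 6 h, and to 682 to 2016 with TSA, 1415 to 1779.7 with BMP2 and 813 to 2484 in the controls at 24 h, where the groups overlapped. Of 5 astrocyte genes, 1 fell with TSA at 6 h, 1 with TSA at 24 h and 2 with BMP2 at 24 h, and none was called as a rise. They summed to 9488 to 10967 with TSA, 10666 to 12878 with BMP2 and 12626 to 13686 in the controls at 6 h. At 24 h the sums were 13020 to 19276 with TSA, 10243 to 11384 with BMP2 and 11265 to 18001 in the controls. Gfap read 3262 to 4373 with TSA at 24 h, above all controls (102 to 2975), while the other astrocyte genes overlapped the controls there. Of 2 genes of dividing cells, 1 fell with TSA at 24 h. Of 5 stem cell and radial glia genes, 2 fell with TSA at 6 h, 2 rose and 1 fell with TSA at 24 h, and 1 rose with BMP2 at 24 h. None of these marker genes was at 0, and their part in the falls of Dll1 and Dll3 was not tested. In such bulk RNA, fewer cells of a type and less RNA per cell cannot be told apart.

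**Figure D2:**
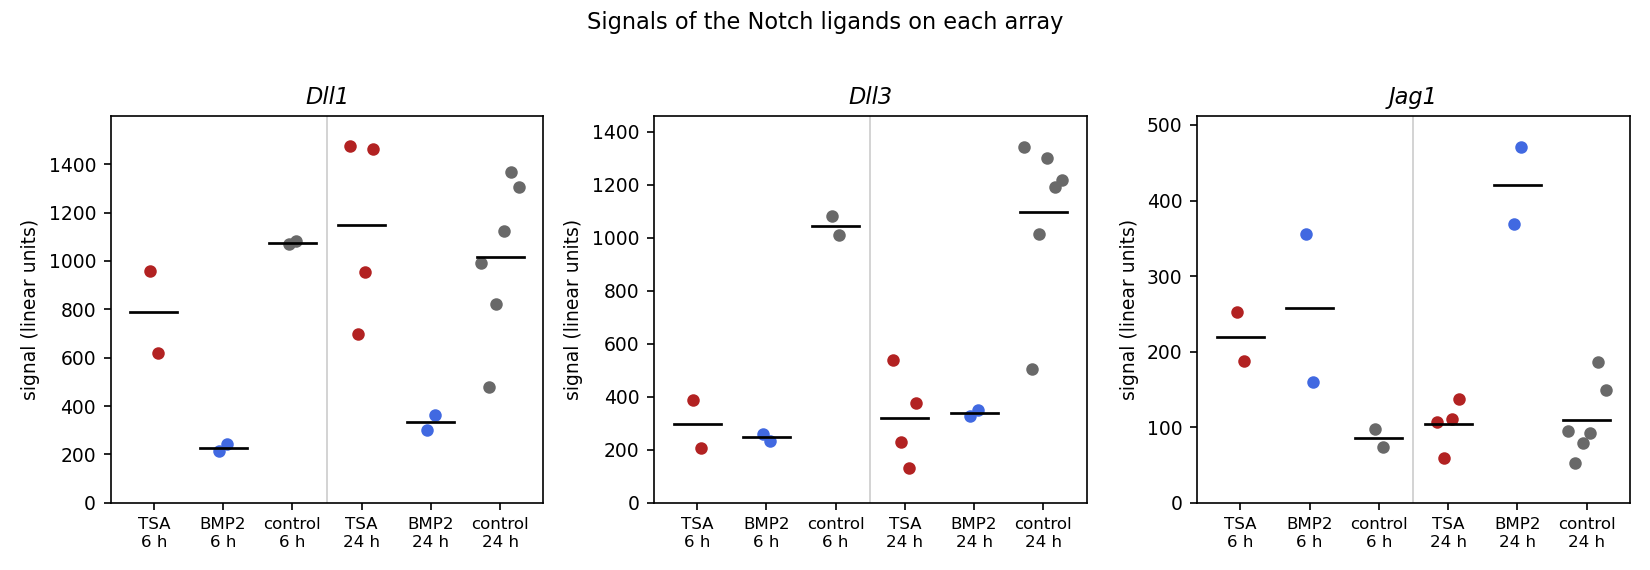
Signal of Dll1, Dll3 and Jag1 on each array (points, linear axis) by treatment and time, with the mean of each group as a line. Dll1 is lowest in the BMP2 groups, Dll3 is low in the TSA and BMP2 groups, and Jag1 is highest in the 2 BMP2 arrays of 24 h (369 and 471).

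Jag1, the ligand of the Jagged type, was the 1 of these 3 ligands that rose. At 6 h its signals (1434070_at) were 252 and 188 with TSA, 355 and 159.8 with BMP2 and 98.2 and 73.9 in the controls. At 24 h they were 106, 59.7, 111 and 138 with TSA, 369 and 471 with BMP2, and 52.7, 93.9 and 186 in the controls. Treated arrays of both kinds lay above the controls at 6 h, and at 24 h only the BMP2 arrays did. With BMP2 the log2 fold change was 1.21 (SE 0.40, adjusted p = 0.263) at 6 h and 1.74 (SE 0.33, adjusted p = 0.00158) at 24 h, and with TSA it was 1.09 (SE 0.40, adjusted p = 0.0615) and -0.02 (SE 0.26, adjusted p = 0.955), so that only BMP2 at 24 h passed. With the replicate block Jag1 passed with TSA and BMP2 at 6 h too (adjusted p = 0.00474 and 0.0195). In the fit without a block, the call with BMP2 at 24 h held without any 1 array (adjusted p up to 0.0435). Of the 24 h controls, replicates 5 and 6 read highest (186 and 149), and these share the Xist grouping with both BMP2 arrays. With the grouping as a term the rise was 1.17 (adjusted p = 0.0295), and against these 2 controls alone it was 1.17 (adjusted p = 0.0441). Both settings rest on the same 2 controls and give the same estimate. TSA against BMP2 at 24 h gave -1.76 (SE 0.35, adjusted p = 0.00119), and -0.92 (adjusted p = 0.147) with the grouping as a term, which ended the call. Of the other Jag1 probe sets, 1421106_at reached 100 only through the BMP2 arrays of 24 h (103 and 150) and 1421105_at stayed at 24.0 or less everywhere.

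Dner, a transmembrane protein of neurons with EGF repeats that has been described as a Notch ligand without the usual receptor-binding domain, rose with both treatments at 24 h only. Its signals at 24 h (1423671_at) were 2829, 2903, 3037 and 3379 with TSA, 3498 and 3682 with BMP2, and 1757, 2103 and 2568 in the controls, with no overlap of either treatment with the controls. At 6 h they were 2291 and 2041 with TSA, 2327 and 2073 with BMP2 and 2246 and 1991 in the controls, where the 3 groups overlapped. The log2 fold change at 24 h was 0.51 (SE 0.11, adjusted p = 0.00187) with TSA and 0.75 (SE 0.14, adjusted p = 0.00123) with BMP2, and the second probe set (1456379_x_at) gave 0.57 (adjusted p = 0.000727) and 0.75 (adjusted p = 0.00121). At 6 h it was 0.03 with TSA (adjusted p = 0.921) and 0.05 with BMP2 (adjusted p = 1). The call of neither treatment ended without any 1 array. The difference between the effects of the 2 times was 0.48 (adjusted p = 0.143) with TSA and 0.70 (adjusted p = 0.247) with BMP2 and did not pass, although with TSA the second probe set did (0.67, adjusted p = 0.0436).

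The receptors were bright in every group, and their brightest probe sets passed no test against the controls in the fit without a block or an Xist term, although Notch1 with TSA passed with either. Notch1 (1418634_at) read 516 and 529.6 with TSA, 875 and 765 with BMP2 and 935 and 783 in the controls at 6 h, and 1154, 757, 847 and 1164 with TSA, 1239 and 1432 with BMP2, and 644, 806 and 1226 in the controls at 24 h. The TSA arrays of 6 h lay below both controls, with a log2 fold change of -0.68 (SE 0.27, adjusted p = 0.0852, or 0.0144 with the Xist term and 0.00724 with the replicate block), and both BMP2 arrays of 24 h lay above all 6 controls, with 0.60 (SE 0.22, adjusted p = 0.0771). In the BMP2 comparison, controls 5 and 6 were the highest (1172 and 1226), and with the Xist grouping as a term the change was 0.15 (adjusted p = 0.757). TSA at 24 h gave 0.14 (SE 0.17, adjusted p = 0.558). With replicate numbers, which pair TSA and control arrays of 24 h, as a block, it was 0.37 (SE 0.12, adjusted p = 0.0241), and with the Xist grouping as a term it was 0.37 (adjusted p = 0.0454), both of which pass. Both settings take controls 5 and 6 out of this comparison, so they give the same estimate and are not separate findings. The second Notch1 probe set (1418633_at) rose with TSA at 24 h by 0.50 (adjusted p = 0.0349).

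Notch3 (1421965_s_at) and Notch1 were highest with BMP2 at 24 h and lowest with TSA at 6 h, and their log2 signals gave the highest correlation of any pair of the 10 genes (Pearson's r 0.82 over 18 arrays, which share their groups). At 6 h the signals of Notch3 were 371 and 378 with TSA, 736 and 681 with BMP2 and 754 and 594 in the controls. At 24 h they were 802, 467, 351 and 547 with TSA, 1066 and 1005 with BMP2, and 330.3, 579.6 and 1031 in the controls, where control replicate 6 lay between the 2 BMP2 arrays. Against the controls it changed by -0.79 (SE 0.40, adjusted p = 0.184) with TSA at 6 h and 0.79 (SE 0.33, adjusted p = 0.112) with BMP2 at 24 h. With the Xist grouping as a term the value for BMP2 was 0.15 (adjusted p = 0.861), and with the replicate block that for TSA at 6 h passed (adjusted p = 0.00508). TSA against BMP2 at 24 h passed narrowly at -0.95 (SE 0.35, adjusted p = 0.0419), a call that ended without any 1 of the 6 arrays except TSA replicate 1 (adjusted p up to 0.18). With the Xist grouping as a term the difference was 0.0061 (adjusted p = 0.995). The second probe set (1421964_at) gave -0.22 (adjusted p = 0.558) there.

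Notch2 (1455556_at) had group means between 554 ± 8.13 (SD, n = 2) (BMP2, 6 h) and 926 ± 180.0 (SD, n = 4) (TSA, 24 h). With BMP2 its log2 fold change was -0.39 (SE 0.27, adjusted p = 1) at 6 h and -0.45 (SE 0.22, adjusted p = 0.166) at 24 h, and with TSA 0.03 (SE 0.27, adjusted p = 0.952) and 0.13 (SE 0.17, adjusted p = 0.577), none of which passed. At 6 h both BMP2 arrays (559 and 548) lay below both controls (705 and 769), whereas at 24 h the BMP2 arrays overlapped the controls. Its other probe set (1451889_at) was at 17.6 or less on every array and was not tested.

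**Figure D3:**
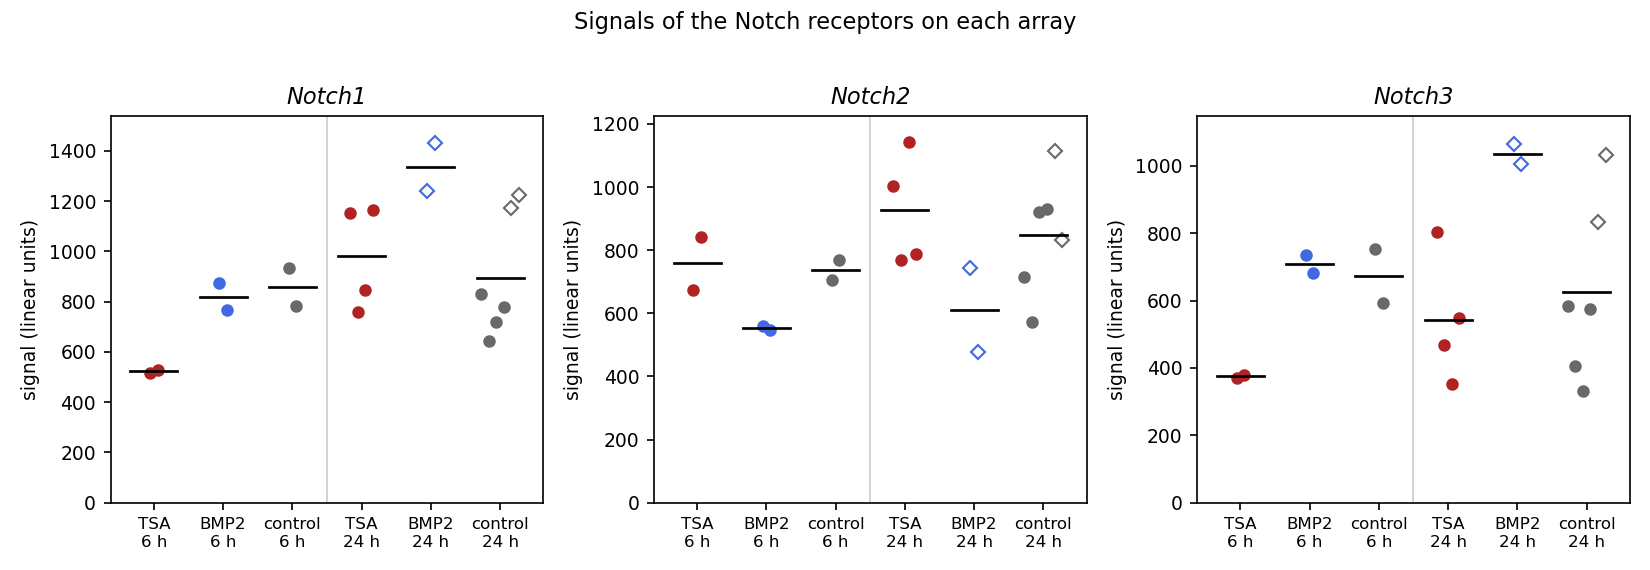
Signal of the 3 Notch receptors on each array (points, linear axis) by treatment and time, with the mean of each group as a line. Open diamonds are the 4 arrays with a high signal of the Xist probe set used for the grouping. For Notch1 and Notch3 they include the 4 highest values, so that the controls of 24 h split into a lower 4 and a higher 2.

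Lfng, a Fringe enzyme that modifies Notch receptors, had low signals with TSA at 6 h and high ones at 24 h. Its signals (1420643_at) were 439.7 and 240.5 with TSA, 527 and 521 with BMP2 and 768 and 576 in the controls at 6 h. At 24 h they were 1655, 757, 1163 and 1584 with TSA, 744 and 805 with BMP2, and 468, 773 and 863 in the controls. At 6 h both TSA arrays lay below both controls, and at 24 h 3 of the 4 TSA arrays lay above all controls. The log2 fold change with TSA was -0.96 (SE 0.34, adjusted p = 0.056) at 6 h, which missed the threshold (0.00997 with the replicate block), and 0.77 (SE 0.22, adjusted p = 0.013) at 24 h, which passed. The difference between the times was 1.73 (SE 0.41, adjusted p = 0.0164), the 1 such difference called among the 10 genes, where 9.85% of all tested probe sets were called. It ended without control replicate 1 or TSA replicate 2 of 6 h (adjusted p up to 0.124), and the rise at 24 h ended without TSA replicate 1 or 4 (up to 0.0534). The dimmer probe set (1449943_at) rose at 24 h too (0.74, adjusted p = 0.0488), with a difference of 1.21 (adjusted p = 0.153) between the times. BMP2 gave -0.33 (SE 0.34, adjusted p = 1) at 6 h and 0.12 (SE 0.28, adjusted p = 0.803) at 24 h.

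Numb, which counteracts Notch by directing the receptor to endocytosis, rose with TSA at both times and with BMP2 at neither by its brightest probe set. At 6 h its signals (1416891_at) were 588 and 517 with TSA, 284 and 272 with BMP2 and 272 and 286 in the controls. At 24 h they were 434, 427, 501 and 489.6 with TSA, 419.7 and 335 with BMP2, and 257, 319 and 352 in the controls. All TSA arrays lay above all controls of their time, and the BMP2 arrays overlapped the controls. The rise was 0.91 (SE 0.17, adjusted p = 0.00142) at 6 h and 0.54 (SE 0.11, adjusted p = 0.00122) at 24 h, and neither call ended without any 1 array. TSA exceeded BMP2 at 6 h by 0.91 (SE 0.17, adjusted p = 0.00112), and at 24 h the difference was 0.28 (SE 0.15, adjusted p = 0.142). The second, dimmer probe set (1425368_a_at) did not follow, with 0.24 (adjusted p = 0.351) and 0.06 (adjusted p = 0.686) for TSA, and rose with BMP2 at 24 h (0.49, adjusted p = 0.0232). By this probe set TSA lay below BMP2 at 24 h (-0.43, adjusted p = 0.0312), opposite in sign to the brightest.

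Rbpj, the DNA-binding partner of the cut receptor, fell with TSA at both times by less than Dll3. Its signals (1448957_at) were 1109 and 999 with TSA, 1449 and 1385 with BMP2 and 1439.9 and 1366 in the controls at 6 h, and 1006, 1099.5, 1299 and 999.8 with TSA, 1069 and 1021 with BMP2, and 1207, 1277 and 1420.5 in the controls at 24 h. The log2 fold change with TSA was -0.40 (SE 0.13, adjusted p = 0.0329) at 6 h and -0.23 (SE 0.08, adjusted p = 0.038) at 24 h, where TSA replicate 3 lay within the controls, and with BMP2 at 24 h it was -0.30 (SE 0.10, adjusted p = 0.0623). Its second probe set (1454896_at) fell with TSA at 6 h (-0.65, adjusted p = 0.0111) and 24 h (-0.42, adjusted p = 0.0069) and with BMP2 at 24 h (-0.52, adjusted p = 0.0158). The third (1418114_at) gave -0.54 (adjusted p = 0.0665), -0.18 (adjusted p = 0.3) and -0.32 (adjusted p = 0.202) in these comparisons. By the brightest probe set the call at 6 h ended without any 1 of the 4 arrays (adjusted p up to 0.226), with the deposited signals, with median scaling or with no filter (up to 0.0833). The call at 24 h ended without 6 of 10 arrays in turn (up to 0.117), and with the deposited signals, no filter or only the groups compared (up to 0.107).

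**Figure D4:**
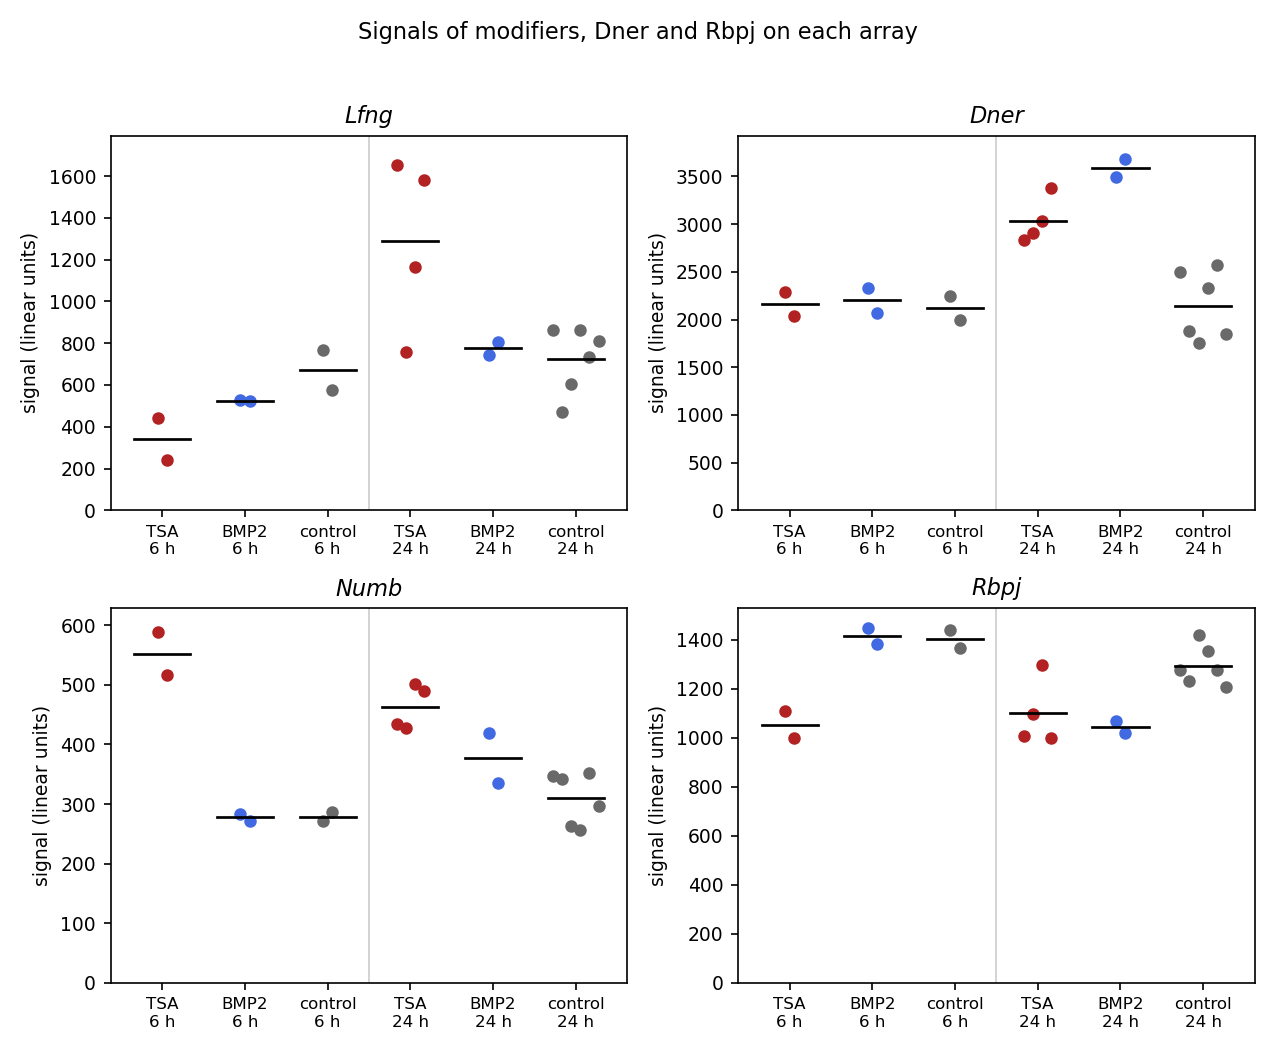
Signal of Lfng, Dner, Numb and Rbpj on each array (points, linear axis) by treatment and time, with the mean of each group as a line. Numb lies above the controls in all TSA arrays, Dner in all treated arrays of 24 h, and Lfng has its lowest 2 values with TSA at 6 h and its highest 3 with TSA at 24 h.

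Set against each other, TSA and BMP2 differed at 6 h in Dll1 and Numb, which were higher with TSA, and Rbpj, which was lower (3 of 10 genes, where 24.3% of all tested probe sets were called). At 24 h Dll1 was higher and Jag1 and Notch3 were lower with TSA (3 of 10, against 38%). Rbpj differed at 6 h by -0.42 (SE 0.13, adjusted p = 0.0258), a call that ended without any 1 of the 4 arrays (up to 0.192). No effect of BMP2 differed between 24 h and 6 h by limma (0 of 10, against 0.628%, with 1 gene at an unadjusted p under 0.05 and 3 called with the replicate block, for which that share was not worked out). The controls of 24 h and 6 h did not differ in any of the 10 genes either (0 of 10, against 4.39%, with 0 at an unadjusted p under 0.05 and adjusted p from 0.55 to 0.997). Groups did not overlap in 8 of 10 genes with TSA and 5 with BMP2 at 6 h, and in 2 with TSA and 6 with BMP2 at 24 h. Among all tested probe sets this was so for 75.2%, 44%, 20.8% and 29.9%.

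Of 44 further genes of the pathway, 40 had a probe set paired with them alone and 34 were tested, and 4 were not analysed here. Over all tested probe sets, 12.1% rose and 10.4% fell with TSA at 6 h and 16.6% rose and 18.8% fell at 24 h, while with BMP2 0.977% rose and 0.494% fell at 6 h and 8.42% rose and 8.11% fell at 24 h. Of the 34 genes, 4 rose and 7 fell with TSA at 6 h, and 5 rose and 9 fell at 24 h. With BMP2, 1 rose and 2 fell at 6 h, and 6 rose and 3 fell at 24 h. Dlk2 and Notch4, among the 6 rises with BMP2 at 24 h, and Dlk1, among the 5 rises with TSA at 24 h, had a group mean of 100 or more only in that group (159, 101 and 104), so that they were tested only through the group where they are high. Among 4 nuclear cofactors 3 fell with TSA at each time. Maml1, a Mastermind coactivator of the Rbpj complex, read 249 and 251 with TSA and 542 and 498 in the controls at 6 h, a change of -0.97 (SE 0.17, adjusted p = 0.00085), and it changed by -0.68 (SE 0.11, adjusted p = 0.000188) at 24 h. The acetyltransferase Kat2b fell at 6 h by 1.73 (SE 0.32, adjusted p = 0.00149).

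Of 7 proteases and protease subunits that cut the receptor, 2 rose and 2 fell with TSA at 6 h, 3 rose and 1 fell with TSA at 24 h, and 2 rose with BMP2 at 24 h. With TSA, Adam17, a protease of the outer cut, rose by 0.63 at 6 h (adjusted p = 0.0021) and 0.44 at 24 h (5e-04), and Aph1b, a subunit of γ-secretase, rose by 0.65 at 6 h (0.014). Adam10, the other protease of the outer cut, rose at 24 h by 0.31 with TSA (0.00807) and by 0.45 with BMP2 (0.00678). Mfng, the Fringe relative of Lfng, fell with both treatments. Mfng read 40.3, 24.4, 31.1 and 60.8 with TSA, 46.6 and 44.2 with BMP2, and 87.2, 140.0 and 213 in the controls at 24 h. It fell by 1.32 with TSA at 24 h (7.24e-05), by 1.49 with BMP2 at 6 h (0.0123) and by 1.17 with BMP2 at 24 h (0.00294). Poglut1, which glucosylates the receptors, fell with BMP2 at 24 h by 0.48 (0.0222). Its signals there were 538 and 513 with BMP2, 609 and 635 in control replicates 5 and 6 and 746 to 885 in the other controls. Replicates 5 and 6 share the Xist grouping with the BMP2 arrays, and its part in this fall was not tested. Dlk1, an atypical Delta-like protein, rose with TSA at 24 h by 0.86 (0.000932), with signals with TSA of 87.0, 112, 98.5 and 117 against 19.5, 47.2 and 64.3 in the controls.

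Of 5 target genes tested, 1 rose and 1 fell with BMP2 at each time, with a median log2 fold change of -0.08 at 6 h and -0.07 at 24 h. With TSA 1 rose at 6 h and 1 fell at 24 h. Hey1 read 4065 and 3945 with BMP2 and 1205 and 796 in the controls at 6 h. It rose with BMP2 by 2.00 (SE 0.25, adjusted p = 0.000472) at 6 h and 1.78 (SE 0.21, adjusted p = 2.11e-05) at 24 h. Nrarp, a feedback inhibitor, fell with BMP2 at 6 h by 1.17 (0.0405). Hes5 fell with TSA at 24 h (-1.02 (SE 0.31, adjusted p = 0.0189)), and Hes1 was not called with either treatment (log2 fold change 0.57 and 0.50 with TSA, -0.08 and -0.07 with BMP2, at 6 h and 24 h).

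Over the 18 arrays, the genes most like a called member in their log2 signals were found among 10587 others, as a description in which the arrays share their groups. For Dll1 they were Smoc1, Psat1 and Fam217b (Pearson's r 0.95, 0.91 and 0.88), for Dll3 Plppr1, Epb41l3 and Sh3d19 (0.90, 0.90 and 0.89), and for Jag1 Tcf20, Shf and Tnfaip8l1 (0.93, 0.91 and 0.91). For Dner they were Dach1, Celsr2 and Plpp1 (0.91, 0.90 and 0.89), and for Lfng Zeb1, Sorbs2 and Tmem176b (0.89, 0.89 and 0.89). For Numb they were Xpr1, Ogfrl1 and Gprasp1 (0.97, 0.96 and 0.94), and for Rbpj Pcid2, Sh3rf1 and Pcbp4 (0.89, 0.87 and 0.87). Numb and Rbpj ran most opposite of all pairs of the 10 genes (r -0.74).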

How the data were processed

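RNA of differentiating neurosphere cells was measured on 18 Affymetrix Mouse Genome 430 2.0 arrays. The values deposited by the authors are linear signal intensities, 1 for each probe set and array. The submitters' notes give MAS5 without a version and the methods give dChip with quantile normalization, and the table does not settle which was used. Normalization between arrays takes the total signal as equal, and quantile normalization takes the whole distribution of signals as equal. A change shared by most genes would therefore not be seen.

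Signals were quantile-normalized over the arrays, and log2(signal + 32) was tested with limma 3.58.1 in R 4.3.3 (1 fit of the 6 groups, eBayes with trend, two-sided). The test took 19439 probe sets that averaged 100 or more in some group, without the 64 array control probe sets, and the Benjamini-Hochberg adjustment ran over all of them within each comparison. Of all probe sets, 34958 were paired with 1 gene, 932 with several and 9211 with none, and none was named from the last 2 kinds. The number of arrays limits the precision. Figures were drawn with matplotlib, and the steps were tested on simulated data.

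The 10 genes, the lists of further pathway genes and of cell type markers, and the Xist grouping were chosen with earlier results of these data known. All 10 genes are named. Hes1, Hes5 and Hey1 and, in each comparison of a treatment with controls, the 2 called rises and the 2 called falls with the smallest adjusted p are named from the pathway list. For each gene called, the 3 genes most alike by Pearson's r are named. Of the pathway and marker lists, 4 genes each were not analysed here.

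Arrays with the same replicate number deviated together between TSA and control at 24 h (r 0.28 to 0.57 over 4 pairs, with 3 of 4 highest at their own number), so these numbers were taken as pairs on the evidence of the data, in the alternative fits with a replicate block only. The main fit had no replicate term, so its calls of TSA at 24 h leave this pairing out. Between BMP2 and control at 24 h, arrays of the same number did not deviate together (r -0.13 to 0.003). At 6 h, r was 0.57 for TSA and 0.71 for BMP2 with the controls, where 2 pairs do not settle the pairing.

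Alternatives were the deposited signals as they are, median scaling, other pseudocounts, other filters, no trend, only the groups compared, the replicate number as a block, the Xist grouping as a term or by choice of controls, the mean of a gene's probe sets, the study's criteria (ratio over 2, difference over 100 and unadjusted p under 0.1) and each array left out. A replicate block within each time was added after seeing the data.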

Additional observations from a re-analysis of the deposited data

Results flagged for a closer look

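The effect of TSA on Lfng differed between the times by a test of the difference itself, 24 h minus 6 h, with a log2 difference of 1.73 (limma, adjusted p = 0.0164). It was -0.96 at 6 h (adjusted p = 0.056) and 0.77 at 24 h (adjusted p = 0.013), and 2 of 2 TSA arrays of 6 h lay below the controls while 3 of 4 TSA arrays of 24 h lay above them. The difference was 1.34 to 2.13 over the fits that each left out 1 array. It was called in 12 of 14 of them.
No sample stood apart from the rest of its group by Dixon's test in any of 20 checks, which covered the 24 h TSA and control groups of the 10 genes. Arrays that deviate together, such as the 24 h controls inside the Xist grouping, can hide each other in this test.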

How the results depend on the processing

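Counts of called genes kept their side (within 1.5 times) in 146 of 188 values over all comparisons and settings, with 17 lower and 25 higher. Single called results kept call and direction in 345 of 392 values, lost the call in 46 and turned in 1. That one was Notch3, TSA against BMP2 at 24 h, at 0.00608 with the Xist grouping as a term, where the grouping and BMP2 at 24 h overlap. The causes of the other shifts were not tested. The share of all tested probe sets called was worked out for the main fit only, so the counts below cannot be set against it. With the replicate block, added block within each time included, the count of called genes was 7 for TSA at 6 h and 7 for BMP2 at 24 h, 3 for BMP2 at 6 h, 5 for TSA against BMP2 at 6 h, and 4 and 3 for the time differences of TSA and BMP2. For TSA at 6 h the block added Jag1, Notch1, Notch3 and Lfng (adjusted p = 0.00474 to 0.00997), and for BMP2 at 24 h Notch1, Notch3 and Rbpj (0.000816 to 0.0322). BMP2 and control arrays of 24 h did not deviate together by number (r -0.13 to 0.003), so the data give no ground for the block there. With the Xist term Notch1 and Notch3 did not pass with BMP2 at 24 h. The block within each time, chosen after seeing the data, also gave 5 for TSA against BMP2 at 24 h. Apart from Notch1, pairing the arrays changed no call of TSA at 24 h. With only the groups compared, 7 genes were called for TSA at 6 h, 2 for BMP2 at 6 h and 6 for TSA against BMP2 at 6 h. With the Xist term the counts were 6 for TSA at 6 h, 5 for TSA against BMP2 at 6 h, 1 at 24 h and 2 for the time difference of TSA, which was also 2 with controls of the same Xist grouping. With a gene's probe sets averaged, the count was 7 for BMP2 at 24 h, 2 for BMP2 at 6 h and 2 for the time difference of TSA. The study's criteria gave 3 for BMP2 at 6 h, 1 for TSA at 24 h and 1 for TSA against BMP2 at 6 h. Leaving out 1 array gave 1 to 3 (TSA 6 h), 3 to 5 (TSA 24 h), 0 in all 4 fits (BMP2 6 h), 2 to 7 (BMP2 24 h), 1 to 2 and 2 to 4 (TSA against BMP2 at 6 h and 24 h) and 0 to 1 (time difference of TSA). For the time difference of BMP2 and for the controls it stayed at 0. Median scaling shifted the median of all probe sets by -0.11 for the time difference of TSA and by less than 0.1 elsewhere. Signals under 100, as for 2 of the 20 probe sets, were too dim to test.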
